A study of Mus musculus with 6 samples.

Results

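White fat cells store triglyceride in one large lipid droplet, release fatty acids from it on demand, and secrete hormones such as leptin and adiponectin. In skin they form a layer of dermal fat beneath the hair follicles, which is known to thicken and thin with the hair cycle. The genes described here were 31 white fat genes, a set of symbols known for their use in fat cells and listed by name. They cover secreted factors, droplet coat proteins, lipolysis, fatty acid uptake, triglyceride and fatty acid synthesis, regulators and receptors. All 31 were found on the array, with 46 probes in all, and all 31 were among the 22823 genes and unnamed transcripts tested.

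Skin came from 6 untreated males whose mixed background was C57Bl6/129Sv (75:25), and the labels give the stage as telogen, when hair follicles rest. The labels give 3 as wild type for Sox4 (WT, replicates 1, 2 and 3, aged 20, 19 and 18 weeks) and 3 carried a conditional knockout of Sox4, a transcription factor, in skin (KO, aged 17, 18 and 16 weeks). The sources used here do not name the driver of the deletion, the cells it reaches or the body site of the skin, so whether fat cells themselves lost Sox4 is not known. The study's stated question is what Sox4 contributes to skin in telogen. KO mice were on average younger, and the labels do not say whether any were littermates.

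Values are log2 signals relative to the 75th percentile of each array, with fold changes as KO minus WT, and 3 arrays per group limit the precision of each. The 75th percentile of the signal ran from 379.8 to 605.5 units, and 52.1% to 66.4% of probes were well above background. Sox4 itself lay between 0.41 and 0.75 in WT and between −3.05 and −2.88 in KO (−3.56, SE 0.13, limma adjusted p = 0.00135), in the direction of the labels, and it is not known if the probe targets the deleted region. WT replicate 1 and KO replicate 3 shared slide 1, WT replicates 2 and 3 shared slide 2 with KO replicate 1, and KO replicate 2 was on slide 3. The arrays of KO replicates 1 and 2 went against the telogen label: hair shaft and inner root sheath genes, which growing follicles express, stood at 5.01 and 4.40 log2 units over the WT mean there and between −0.16 and 0.25 on the other 4 arrays. The resting stage of these 2 skins is therefore in doubt, and genotype and hair cycle stage cannot be fully told apart in the comparison. The label of white fat held on every array: each of the 31 genes was well above background on 6 of 6 arrays, among them the fat cell hallmarks Adipoq, Plin1, Cidec, Lep, Retn and Cfd.

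C/EBP alpha and C/EBP beta, the products of Cebpa and Cebpb, are textbook activators of fat cell genes, so the bases before the start of the members were searched for the C/EBP letters TTGCNNAA on both strands. RefSeq promoters of assembly GRCm38.p6 were matched by symbol for 24 of the 31 genes, as 30 windows of 250 bases that end just before the start; the others are Adrb3, Dgat1, Dgat2, Fabp4, Gpd1, Lpl and Tmem45b. The letters were found in 3 of the 30 windows, of Lep, Plin1 and Cidec, beside 9.56% of 32851 windows of all genes. The other Cidec window did not hold them. The E-box CACGTG was in 2 windows, of Lipe and Mgll (6.02% of all windows), and each of these genes also had a window without it. The nuclear receptor half-site AGGTCA, read as TGACCT on the other strand, was in 3 windows, of Acly, Adig and Cd36 (14.0%). None of these counts stood out from the share of all windows. The 3 promoters with C/EBP letters are shown, though none of their genes passed the test below. The groups did not overlap for Lep and overlapped for Plin1 and Cidec. Capitals mark the C/EBP letters.
Lep, chr6:29059971-29060220, plus strand: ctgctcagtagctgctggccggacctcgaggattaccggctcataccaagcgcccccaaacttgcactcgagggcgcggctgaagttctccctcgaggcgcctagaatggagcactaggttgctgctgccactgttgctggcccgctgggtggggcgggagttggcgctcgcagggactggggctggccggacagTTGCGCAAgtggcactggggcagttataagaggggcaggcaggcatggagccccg
Plin1, chr7:79732777-79733026, minus strand: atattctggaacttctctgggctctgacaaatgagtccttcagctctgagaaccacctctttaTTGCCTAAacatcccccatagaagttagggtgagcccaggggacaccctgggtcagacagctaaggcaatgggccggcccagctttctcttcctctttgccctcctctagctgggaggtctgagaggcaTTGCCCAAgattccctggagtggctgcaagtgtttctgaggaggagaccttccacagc
Cidec, chr6:113434765-113435014, minus strand: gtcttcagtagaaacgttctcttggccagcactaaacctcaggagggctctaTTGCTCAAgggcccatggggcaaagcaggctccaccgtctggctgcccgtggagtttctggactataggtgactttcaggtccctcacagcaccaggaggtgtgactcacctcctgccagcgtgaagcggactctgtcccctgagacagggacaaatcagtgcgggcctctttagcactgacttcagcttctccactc
The Lep match, TTGCGCAA, reads the same on both strands and lies 55 to 48 bases before the start. These matches describe letters in the windows and not bound sites.

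No white fat gene passed the test between KO and WT skin, and the largest differences were in Lep, Adrb3, Npr3 and Tmem45b. None of the 31 passed the threshold of 0.05 on the limma adjusted p (smallest 0.274), where 0.0219% of all genes passed. At an unadjusted limma p under 0.05 there were 5 members lower in KO (5.50% of all genes) and 1 higher (6.26% of all genes). Of the 31, 23 had a negative log2 fold change, or 74.2%, beside 64.1% of all genes, and the median was −0.22 beside −0.08 over all genes. All 3 KO values lay below all WT values in 5 members (11.8% of all genes) and above them in 2 (7.56% of all genes). For 20 of 31 members the KO mean lay inside the range of the 3 WT values, as it did for 47.9% of all genes.

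**Figure D1:**
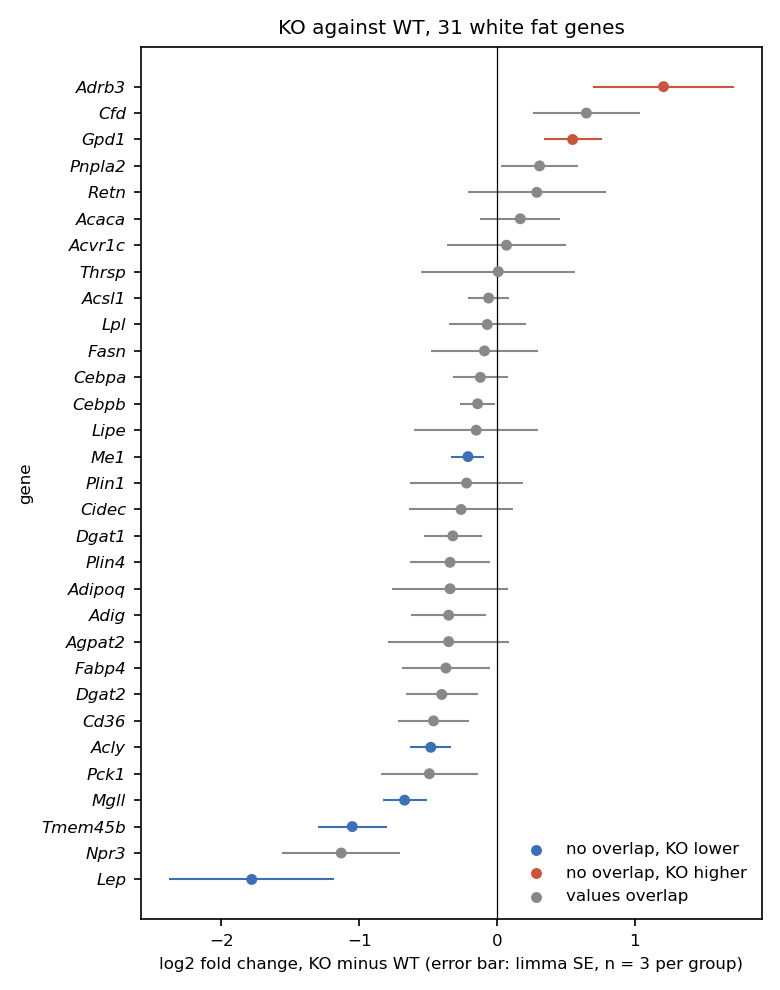
Log2 fold change (KO minus WT, x axis) of each of the 31 white fat genes (y axis), with limma SE, 3 arrays per group. Values run from −1.78 for Lep to 1.21 for Adrb3; blue marks the 5 genes whose KO values all lie below WT and red the 2 whose KO values all lie above.

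The white fat genes varied together between arrays of the same group. WT replicate 1 had the lowest value of the 3 WT arrays for 31 of 31 members, beside 42.6% of all genes. Among the KO arrays, replicate 1 was highest for 25 of 31 members (24.9% of all genes) and replicate 2 lowest for 21 of 31 (37.9% of all genes). The level of the whole group on an array, taken as the median over members of the signal minus the member's WT mean, was −0.55, 0.27 and 0.27 in WT replicates 1, 2 and 3 and 0.02, −0.54 and −0.28 in KO replicates 1, 2 and 3. WT replicate 1 and KO replicate 2 stood at nearly the same low level, and KO replicate 1 stood nearest to the other WT skins. The SD between WT arrays had a median of 0.55 over the members and 0.18 over all genes, and the SD between KO arrays 0.30 and 0.17. In whole skin, fewer fat cells and less RNA of these genes per fat cell cannot be told apart.

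**Figure D2:**
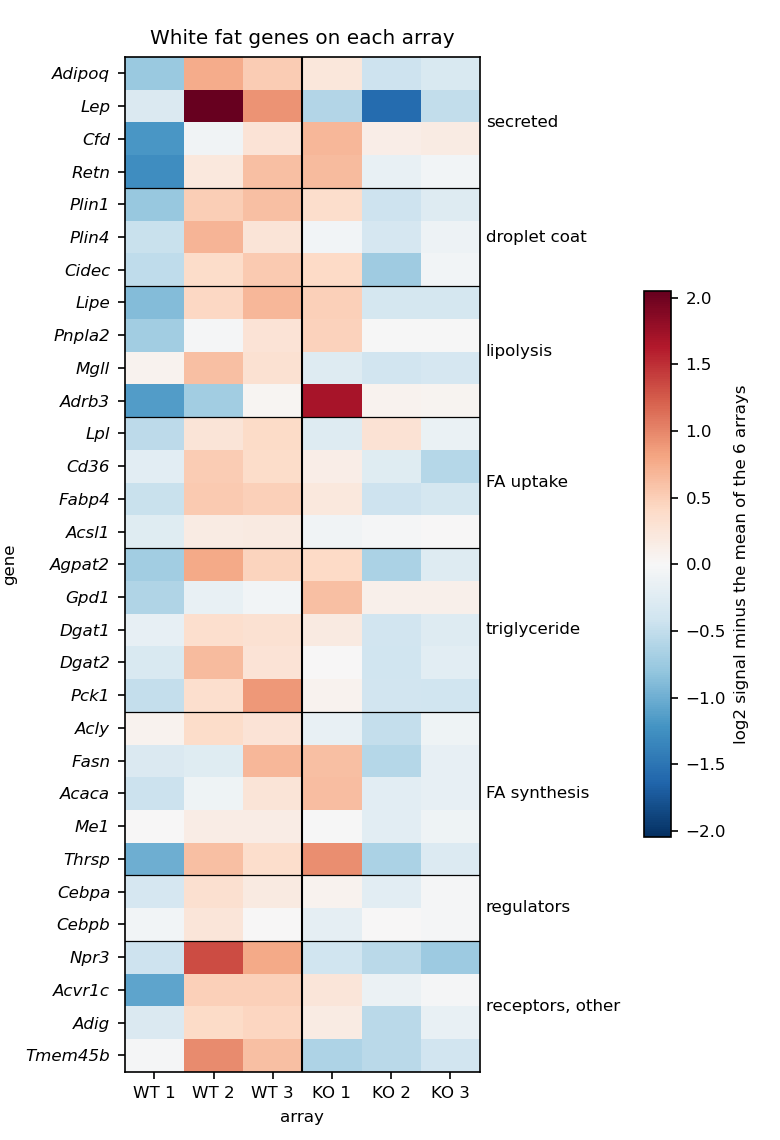
Log2 signal of each white fat gene (rows, by role) on each array (columns), minus the gene's mean over the 6 arrays. WT replicate 1 is the lowest WT column in all 31 rows, and KO replicate 1 is the highest KO column in 25.

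The direction of the group differed with the arrays set against each other. On slide 1, where KO replicate 3 met WT replicate 1, the median difference over members was 0.27 and 8 of 31 were lower in KO. On slide 2, where KO replicate 1 met WT replicates 2 and 3, it was −0.24 and 23 of 31 were lower. Over all genes the medians were 0.02 and −0.11, and 45.7% and 63.8% of genes were lower in KO. A fold change with slide as a block rests on slides 1 and 2 only, since KO replicate 2 was alone on slide 3. With slide as a block the median over members was −0.04. With age as a covariate it was −0.78 (−0.15 over all genes), 29 of 31 were lower, and Cfd, Retn, Pnpla2, Acaca, Thrsp and Acvr1c had the opposite sign to the fit without age. Without WT replicate 1 it was −0.56, 19 members lay lower in KO without overlap (27.7% of all genes), and 2 were called, Tmem45b and Npr3, where 1.33% of all genes were called in that fit.

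**Figure D3:**
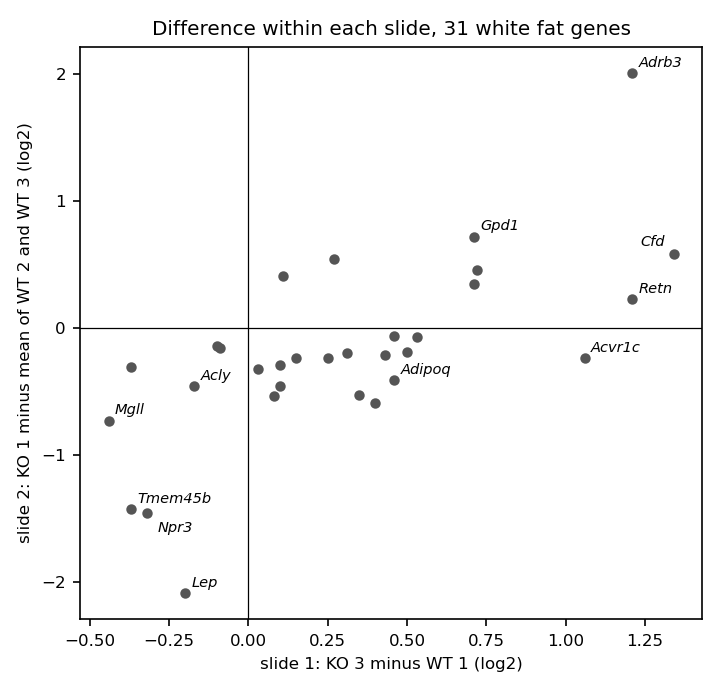
Each white fat gene's log2 difference on slide 1 (KO 3 minus WT 1, x axis) against that on slide 2 (KO 1 minus the mean of WT 2 and WT 3, y axis). Lep, Npr3, Tmem45b, Mgll, Acly, Cd36, Dgat1 and Me1 lie below 0 on both slides. Adrb3, Gpd1, Cfd, Retn, Pnpla2, Acaca, Thrsp and Fasn lie above 0 on both. The other genes, Adipoq among them, change sign.

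Among the secreted factors, leptin had the largest difference. Lep, which encodes the hormone that reports fat stores to the brain, had WT values of −0.55, 1.79 and 0.67 (replicates 1, 2 and 3) and KO values of −0.86, −1.83 and −0.76. All KO values lay below all WT values, with WT replicate 1 only 0.20 above the nearest KO array. The fold change was −1.78 (SE 0.60), or 3.44-fold lower in KO, and it did not pass the threshold (limma adjusted p = 0.359; exact two-sided permutation p = 0.1, the smallest that 3 against 3 arrays allow). Within slides it differed by −0.20 (slide 1) and −2.09 (slide 2), and the slide-blocked fit gave −1.28. Without WT replicate 2, the array where leptin was highest, it was −1.21.

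Adipoq, the adiponectin gene, had WT values of 3.74, 5.26 and 5.02 against KO values of 4.73, 4.07 and 4.19. Its KO values lay within the WT range, and the fold change of −0.34 (SE 0.42, limma adjusted p = 0.716) was smaller than the WT SD of 0.82. It was −0.81 without WT replicate 1, −0.05 without WT replicate 2, −0.04 with slide as a block and −1.05 with age as a covariate. Cfd, which encodes the complement protease adipsin, had a WT mean of 7.38 ± 0.77 and a KO mean of 8.03 ± 0.31 (SD, n = 3), a fold change of 0.65 (SE 0.39). The resistin gene Retn had 4.14 ± 0.99 and 4.43 ± 0.44. For Cfd and Retn the slide 1 differences were 1.34 and 1.21 and the slide 2 differences 0.58 and 0.23. Without WT replicate 1 the value for Retn was −0.27, the opposite sign, and that for Cfd was 0.22.

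The 3 droplet coat genes overlapped between groups, each lowest in WT replicate 1 among the WT arrays. Plin1 and Plin4 encode perilipins of the droplet surface, and Cidec a protein that fuses droplets into larger ones. Plin4, with the smallest p of the 3, had WT values of 4.98, 6.13 and 5.69 against KO values of 5.38, 5.08 and 5.33 (−0.34, SE 0.29, limma adjusted p = 0.621). Its KO values all lay inside the WT range. Plin1 read 1.95, 3.22 and 3.33 against 3.08, 2.29 and 2.45, and Cidec 4.27, 5.16 and 5.33 against 5.19, 4.06 and 4.73. Their fold changes were −0.22 (SE 0.41) and −0.26 (SE 0.38), and with slide as a block they were 0.11 and 0.17.

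Lipolysis genes went both ways. Adipose triglyceride lipase (Pnpla2), hormone-sensitive lipase (Lipe) and monoacylglycerol lipase (Mgll) act in sequence on stored fat, and the receptor of Adrb3 switches the cascade on in response to noradrenaline. Mgll had WT values of 5.96, 6.50 and 6.19 against KO values of 5.62, 5.49 and 5.53, so that every KO value lay below every WT value by at least 0.34. The fold change was −0.67 (SE 0.16), the smallest p of the 31 members, with limma adjusted p = 0.274 and exact permutation p = 0.1. All 4 Mgll probes had lower KO means, by −0.56 to −1.27. The probe with −1.27 was the dimmest, well above background on 5 of 6 arrays, and the one with −0.56 overlapped between groups. For the brightest probe the differences were −0.44 on slide 1 and −0.73 on slide 2. Adrb3 had WT values of −0.28, 0.16 and 0.91 against KO values of 2.55, 0.94 and 0.93. The groups were apart by only 0.02, and KO replicate 1 alone lay well above the rest. Its fold change was 1.21 (SE 0.51, limma adjusted p = 0.431) and its slide differences 1.21 and 2.01; averaging its 2 probes made the groups overlap. Pnpla2 (0.31, SE 0.28) and Lipe (−0.15, SE 0.45) overlapped between groups.

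**Figure D4:**
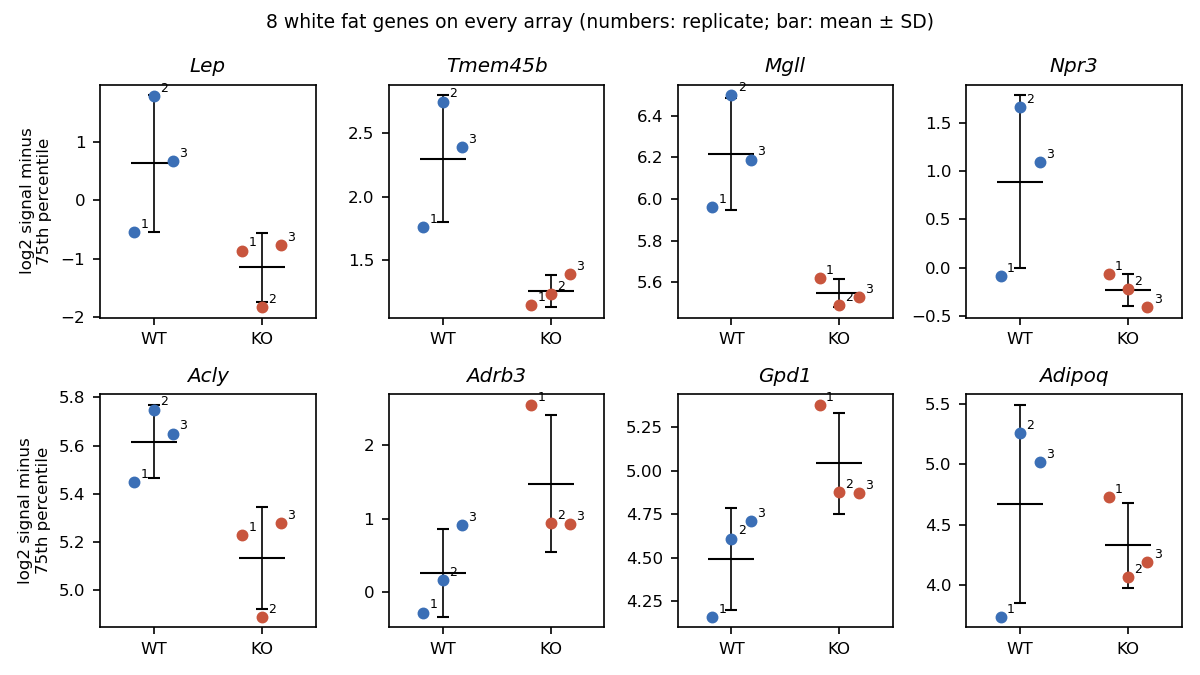
Log2 signal relative to the 75th percentile (y axis) of 8 white fat genes in WT and KO skin, each point an array numbered by replicate, bars showing mean ± SD (n = 3). Lep, Tmem45b, Mgll and Acly lie lower in KO without overlap, Adrb3 and Gpd1 higher, while Npr3 and Adipoq overlap between groups.

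Genes of fatty acid uptake overlapped between groups. Lpl encodes lipoprotein lipase, Cd36 a fatty acid transporter, Fabp4 the carrier of fatty acids inside fat cells and Acsl1 an enzyme that activates them. All 4 had negative fold changes from −0.46 to −0.06. Cd36, with the smallest p, had WT values of 2.51, 3.25 and 3.11 against KO values of 2.87, 2.48 and 2.14 (SE 0.26, limma adjusted p = 0.516), and was lower in KO on both slides, by −0.37 and −0.31. Fabp4 read 6.39, 7.39 and 7.33 against 7.07, 6.42 and 6.49. Here too WT replicate 1 lay at the level of KO replicates 2 and 3.

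In triglyceride synthesis 1 enzyme had a positive fold change and the other 4 a negative one. Gpd1, glycerol-3-phosphate dehydrogenase, which supplies the glycerol backbone, had WT values of 4.16, 4.61 and 4.71 against KO values of 5.38, 4.88 and 4.87. All KO values lay above all WT values, the nearest pair 0.16 apart. The fold change was 0.55 (SE 0.21), 1.46-fold, with limma adjusted p = 0.404 and exact permutation p = 0.1. Its differences on slides 1 and 2 were 0.71 and 0.72. The acyltransferase genes Agpat2, Dgat1 and Dgat2 and Pck1, an enzyme of glycerol production from pyruvate, had fold changes from −0.49 to −0.32 with SE from 0.21 to 0.44, and each overlapped between groups. Dgat2 read 6.23, 7.18 and 6.82 against 6.54, 6.14 and 6.33.

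Of the 5 fatty acid synthesis genes, Acly and Me1 lay lower in KO without overlap, as 11.8% of all genes did. Acaca, Fasn and Thrsp overlapped between groups. Acly, the citrate lyase that provides cytosolic acetyl-CoA, had WT values of 5.45, 5.75 and 5.65 against KO values of 5.23, 4.89 and 5.28. The groups did not overlap and the fold change was −0.48 (SE 0.15, limma adjusted p = 0.342, exact permutation p = 0.1), with −0.17 on slide 1 and −0.46 on slide 2. The other Acly probe, which was dimmer, had −0.45 and overlapped between groups. Me1, malic enzyme, which supplies NADPH, had 5.51 ± 0.08 in WT and 5.30 ± 0.10 in KO (SD, n = 3), without overlap by a margin of 0.02 that was lost under median or quantile scaling and with the mean of its probes. Fasn, fatty acid synthase, had a fold change of −0.09 (SE 0.39), Acaca, acetyl-CoA carboxylase, 0.17 (SE 0.29) and Thrsp, a lipogenic nuclear protein, 0.01 (SE 0.56). Thrsp spread widely in both groups, from 1.44 to 3.05 in WT and from 1.78 to 3.38 in KO.

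The regulators had small fold changes and overlapped between groups, except Cebpb under quantile scaling, with or without normexp background correction. There Cebpb lay lower in KO without overlap. Cebpb had WT values of 4.53, 4.83 and 4.58 against KO values of 4.39, 4.59 and 4.56 (−0.14, SE 0.13, limma adjusted p = 0.658), and Cebpa had 3.22 ± 0.36 in WT and 3.10 ± 0.14 in KO (SD, n = 3). Pparg, which encodes the nuclear receptor that directs fat cell formation and was not among the 31, read 2.55, 3.20 and 2.94 against 2.96, 2.28 and 2.68 (−0.26, SE 0.24, limma adjusted p = 0.640). WT replicate 1 was again the lowest WT array for all 3 genes.

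Among the remaining members, Npr3 and Tmem45b had the most negative fold changes of all but Lep. Npr3 encodes the clearance receptor of natriuretic peptides, which removes these lipolytic hormones. It had WT values of −0.09, 1.67 and 1.10 against KO values of −0.07, −0.22 and −0.41, a fold change of −1.13 (SE 0.43, limma adjusted p = 0.395). The KO arrays were even, while WT replicate 1 lay just below the highest of them, so the groups overlapped. Tmem45b, a transmembrane protein gene, had WT values of 1.76, 2.75 and 2.39 against KO values of 1.14, 1.23 and 1.39, without overlap. Its fold change was −1.05 (SE 0.25), 2.07-fold lower, with limma adjusted p = 0.274 and exact permutation p = 0.1. Npr3 and Tmem45b were lower in KO on both slides, by −0.32 and −0.37 on slide 1 and by −1.46 and −1.43 on slide 2. Without WT replicate 1 their values were −1.62 (limma adjusted p = 0.0478) and −1.32 (limma adjusted p = 0.0421). Acvr1c, which encodes the activin receptor ALK7, had a WT SD of 0.90 and a fold change of 0.07 (SE 0.43), and Adig, adipogenin, had −0.35 (SE 0.27).

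Other fat genes, listed by pathway, also gave no call. Of 81 listed, 78 were measured, and 0 passed the limma threshold. At an unadjusted limma p under 0.05 there were 6 lower and 5 higher in KO, where 5.50% and 6.26% of all genes were, so these counts lay near the shares of all genes. A negative fold change was found for 56 (71.8%, beside 64.1% of all genes), with a median of −0.15. WT replicate 1 was the lowest WT array for 47 of the 78, or 60.3%. Their level was −0.20, 0.13 and 0.08 in WT and −0.11, −0.20 and −0.14 in KO.

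Within them, the 13 regulators had a median of −0.02, with Lpin1 (0.38), Klf15 (0.26), Rxra (−0.13) and Pparg having the smallest p. The 19 droplet and lipolysis genes had a median of −0.21. They ranged up to 1.89 for Fitm1, a droplet protein of muscle, and included Cidea (−0.45), Prkar2b (−0.65) and G0s2 (−0.72), an inhibitor of Pnpla2. The 28 synthesis and uptake genes had a median of −0.22. In this list Slc2a4, the insulin-responsive glucose transporter GLUT4, had 1.43 (SE 0.31, limma adjusted p = 0.274), while Slc27a4 (−0.47), Acsl4 (−0.44) and Fabp5 (−0.56) lay lower. These 4, named for their small p, did not overlap between groups. Of the 28, 5 lay lower and 3 higher without overlap, beside 11.8% and 7.56% of all genes. The 18 signal and receptor genes had a median of −0.15, among them Nnat (−1.97, SE 0.63), the leptin receptor gene Lepr (−0.43), Itih5 (−0.32) and Insr (0.23). Nnat, neuronatin, shared the shape of Lep, with −0.80, 1.69 and 1.39 in WT and −1.26, −1.34 and −1.04 in KO.

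Genes of other tissues in the same skin also differed between arrays. The 20 skeletal muscle genes had levels of 1.12, −0.33 and −0.75 in WT and 1.65, 2.05 and 1.46 in KO, with 19 of 20 positive and a median of 1.63 (Ckmt2 2.22, Pygm 2.04, Atp2a1 2.17, Des 1.55). WT replicate 1, the WT array with the lowest fat level, had the highest WT muscle level. KO replicate 1 was high in muscle and stood near the WT mean in fat. Slc2a4, Fitm1 and Gpd1 are also expressed in skeletal muscle, and the part of muscle RNA in their values was not tested. The 14 hair shaft and inner root sheath genes had levels of 5.01 and 4.40 in KO replicates 1 and 2 and between −0.16 and 0.25 on the other 4 arrays (Krt86 4.34, Padi3 3.97, Krt84 1.42, Krt33a 4.43), so the 2 KO arrays with the highest and the lowest fat level were the 2 with high hair genes. Without these 2 KO arrays, with KO replicate 3 alone against 3 WT arrays and its spread assumed to be like theirs, the median over the 31 fat genes was −0.28 beside −0.02 over all genes. That fit called 0 of all 22823 genes, so its lack of calls says nothing of the fat genes. In it Lep had −1.39, Npr3 −1.30, Tmem45b −0.91, Mgll −0.69, Acly −0.33, Me1 −0.19, Adrb3 0.67 and Gpd1 0.38. The part of hair cycle stage in the fat values was not tested. The 14 sebaceous gland genes had a median of −0.37 with 13 of 14 negative (Hsd3b6 −0.99, Elovl3 −0.76, Fa2h −0.80, Elovl4 −0.66) and levels of −0.15, 0.10 and 0.05 in WT and −0.07, −0.77 and −0.33 in KO. Sebaceous glands also make lipid, and their part in the values of shared enzymes such as Acly, Fasn and Dgat2 was not tested.

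**Figure D5:**
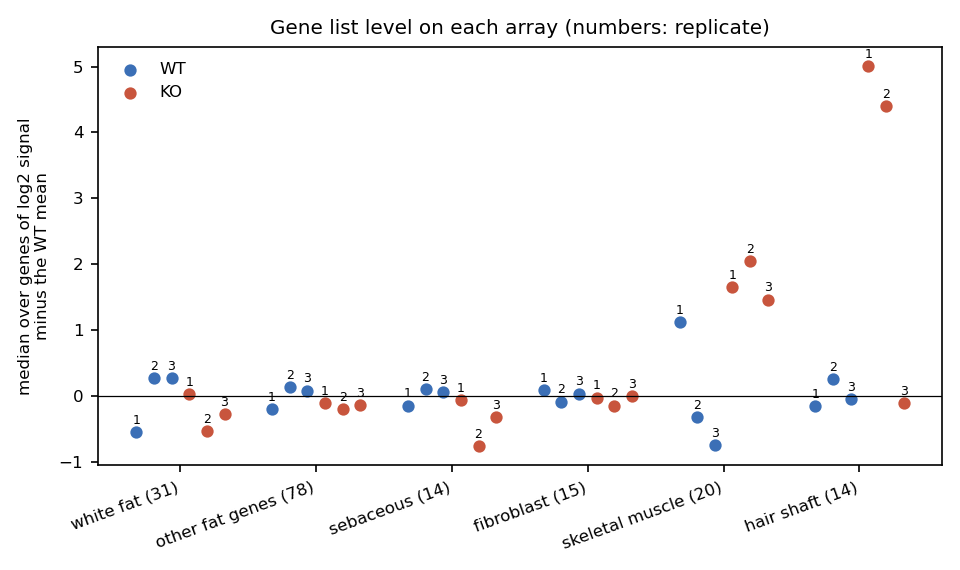
Median over genes of log2 signal minus the WT mean (y axis) for 6 gene lists on each array, numbered by replicate. White fat runs from −0.55 (WT 1) to 0.27 (WT 2 and WT 3), skeletal muscle is high in WT 1 and in all KO arrays, and hair shaft genes are high in KO 1 and KO 2.

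Among brown fat markers the defining one was near background. Ucp1, the uncoupling protein of brown fat, was well above background on 1 array and was not tested. Of the 10 measured markers, 5 were higher and 5 lower (median 0.33). The smallest p values belonged to Elovl3, which sebaceous glands also express, and to Cox8b (1.67), Cpt1b (1.80) and Cox7a1 (2.01), which are also muscle genes. For other cell types the medians were −0.13 for 15 preadipocyte and fibroblast genes (Col1a1 −0.24, Pi16 0.78, Pdgfrb −0.33, F3 −0.20), 0.05 for 7 endothelial genes (Emcn −0.21, Tek 0.31, Vwf 0.25, Tie1 0.21), −0.20 for 6 macrophage genes (Cd163 0.83, Adgre1 −0.45, Lyz2 −0.25, Csf1r −0.21) and −0.20 for 9 epidermal genes (Lor −0.17, Trp63 −0.21, Dsg1a −0.24, Ivl −0.33). None of the genes of these lists passed the limma threshold (smallest adjusted p = 0.208, Hsd3b6).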

How the data were processed

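RNA from 6 skins was hybridised to 1-colour Agilent arrays. The authors deposited spot intensity values and 0 or 1 flags from Agilent Feature Extraction 11.5.1.1, background-subtracted and detrended but not normalized between arrays, per the file headers. They also deposited a log2 value table, whose column headings went against the scanner files: each WT column followed the KO array of the same number and each KO column the WT array (r from 0.942 to 0.964 over 27353 probes, r from −0.594 to −0.216 with the array named). Groups were therefore taken from the scanner files, and the value table gave no result. Of its making, only the use of limma is known, per the submitters' processing notes.

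Unflagged spots of a probe were averaged as log2 processed signal, and each array's 75th percentile was subtracted; 31 of 55681 probes without an unflagged spot on some array were left out. Accessions were named through RefSeq (assembly GRCm38.p6), which gave 27497 probes a symbol. The array grid is on mm9, so coordinates from the array are not given, and the promoter coordinates above are of GRCm38.p6. A probe was kept if every array of WT, or every array of KO, had it well above background, and the brightest stood for its gene; the kept probes of the 11 members with several gave the same sign. The KO minus WT test was limma (3.58.1, R 4.3.3) without covariates and with Benjamini-Hochberg adjustment over all 22823 features, tested on simulated data first. Nothing says that the samples come from separate litters or extractions, so p-values measure only the spread between these samples. Slides were read from the array records.

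The members and lists were chosen with earlier results of these data known, so lists are described without tests. Named with every array's value are Adipoq, Lep and, per role, the members with the smallest p and the largest fold change. A few more were given so after their values were seen (Plin1, Cidec, Fabp4, Dgat2). For other lists, the 4 genes with the smallest p are named, mostly by fold change alone. Of these, Pparg and Nnat have every array's value, Nnat for its likeness to Lep. The labels do not say whether replicate numbers pair the mice. Correlations of same-numbered deviations were −0.13, −0.04 and 0.08, too small to decide it, and no pairing was used.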

Additional observations from a re-analysis of the deposited data

How the results depend on the processing

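The alternatives were no filter on dim probes, normexp background correction with quantile normalization, quantile or median scaling, the mean of a gene's probes, slide or replicate number as a block, age as a covariate, and leaving out each array. Normexp used the median spot signal, since the files hold no mean signal, and leaving out KO replicates 1 and 2 together was chosen after seeing the data. Of the 31 genes, 17 kept their direction in all 15 alternatives, among them Lep, Mgll, Tmem45b, Npr3, Acly, Adrb3, Gpd1 and Adipoq, though Adipoq ran from −0.81 to −0.05 with 1 array left out. The normexp, quantile, median and probe-mean alternatives turned no gene. The replicate block could turn none, since each replicate number occurs in both groups and the fold changes stay the same. Leaving out the filter also left the fold changes of all 31 as they were. These 2 alternatives therefore say nothing of how stable the directions are.

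With the replicate number as a block, 0 of the 31 were called, the median was −0.22 and the count over all genes fell from 5 to 0. WT replicates 1, 2 and 3 correlated best with KO replicates 2, 1 and 3 (0.10, 0.13 and 0.08). Correlations this small cannot decide whether the numbers pair the mice. Slide as a block turned Plin1 (0.11), Cidec (0.17), Lipe (0.19), Agpat2 (0.07), Fasn (0.28) and Cebpa (0.02). That fit in effect leaves out KO replicate 2, the only array on slide 3. Age as a covariate, which was lower in KO, moved the median to −0.78 and turned Cfd (−0.10), Retn (−0.70), Pnpla2 (−0.19), Acaca (−0.21), Thrsp (−0.85) and Acvr1c (−0.77). Without KO replicates 1 and 2, Acaca was −0.09 and Thrsp −0.28. With 1 array left out, the number called ran from 0 to 2 (2 without WT replicate 1) and the median from −0.56 to −0.05. The number without overlap ran from 7 to 21 and the number lower from 18 to 27. Fewer arrays overlap less often in any gene. Of all genes, 11.8% lay lower in KO without overlap on all arrays and 27.7% without WT replicate 1. Over the same fits Retn ran from −0.27 to 0.67, Acaca from −0.11 to 0.34, Thrsp from −0.48 to 0.34, Acvr1c from −0.45 to 0.33, Lipe from −0.62 to 0.15, Lpl from −0.37 to 0.10, Acsl1 from −0.21 to 0.01, Cebpa from −0.32 to 0.01, Plin1 from −0.66 to 0.03, Fasn from −0.43 to 0.22 and Cidec from −0.59 to 0.04. The causes of these turns were not tested. Over all genes the calls ran from 0 to 303, with 141 under the age covariate and 88 without KO replicate 3; quantile and median scaling gave 11 and 15, and normexp 8. Age differed between the groups, so its effect and that of genotype cannot be fully told apart.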
